A study of Rattus norvegicus with 26 samples.

Results

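The 6 fetal hearts of a rat study of maternal hypoxia are described here, of 26 hearts in the whole series. They were chosen by their labels and not by any measured value. All were Sprague Dawley rat hearts taken at gestational Day 21. The 3 control fetuses came from normoxic pregnancies. The 3 hypoxia fetuses came from dams that breathed 10.5% oxygen over the last 6 days, between gestational Days 15 and 21. Hearts were measured by RNA-seq after depletion of ribosomal RNA, 1 heart per sample, so that fewer cells of a type and less RNA per cell cannot be told apart. Neither litter nor sex is stated per fetus in the sources used here. The count n is therefore of fetuses and not of dams, the labels of hypoxia 1 and 2 begin alike, and p-values measure only the spread between these hearts.

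The heart of the late fetus still grows by division of its muscle cells, burns mainly glucose and lactate, and builds its contractile apparatus and its elastic vessel walls shortly before birth. When oxygen is short, hypoxia-inducible factors (HIF) normally raise glycolytic enzymes, glucose transporters and Bnip3, a receptor for the removal of mitochondria. Heart muscle also has a stress programme, marked by Nppa and Nppb, the genes of the natriuretic peptides, and by a shift between Myh6 and Myh7, the fast and slow myosin heavy chains.

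The deposited tables list 30044 genes in FPKM, fragments scaled to gene length and to library depth, and as scaled fragments, which the authors brought to a common depth and rounded. Of these, 13422 genes had a mean of at least 1 FPKM over the 6 hearts and were tested. The scaled fragments summed to between 5397637 and 5863020 per heart. Defining genes of heart muscle were abundant in each heart: Actc1, cardiac actin, stood between 4882 and 5657 FPKM and Tnnt2, cardiac troponin T, between 3116 and 3351 FPKM. The groups differed in make-up. Eif2s3y, a Y-linked gene, stood at 29.7, 28.2 and 26.4 FPKM in control 1, control 3 and hypoxia 1 and was listed at 0 in the other 3 hearts. Control hearts thus held 2 with Y-linked RNA and hypoxia hearts 1. Hypoxia 3 alone listed ribosomal RNA, 478126 scaled fragments of Rn28s, Rn18s and Rn45s, which the other hearts list at 0. Hypoxia 3 also stood apart on the first principal component, which was computed with these ribosomal genes included and so is not a separate observation. The part of sex and of ribosomal RNA in single results was not tested beyond the fits given below.

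**Figure D1:**
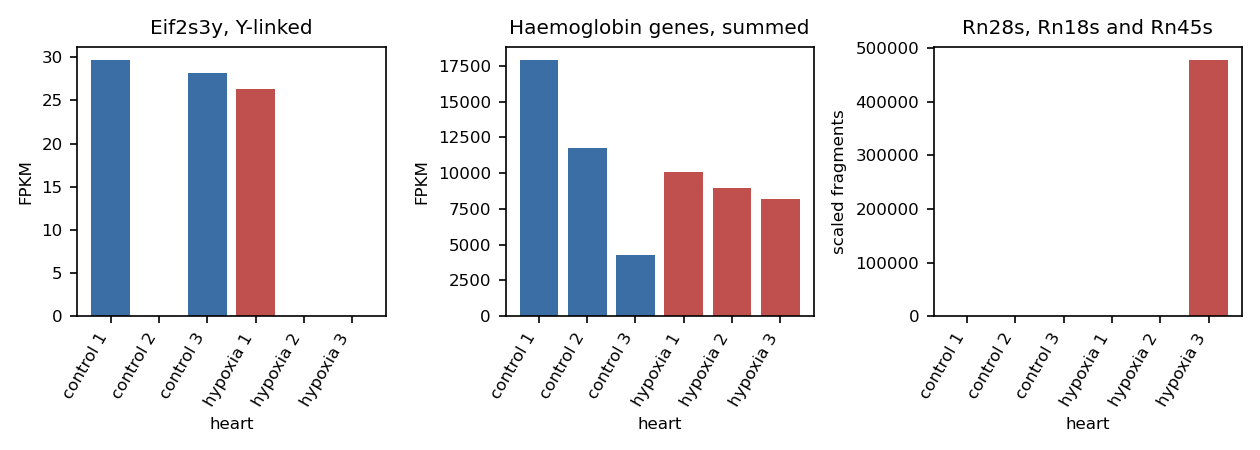
The 3 panels give, for each of the 6 fetal hearts on the horizontal axis, the FPKM of the Y-linked gene Eif2s3y, the summed FPKM of Hba1, Hba2, Hbb and Hbb-b1, and the scaled fragments of 3 ribosomal RNA genes, with controls in blue and hypoxia in red. Control 1, control 3 and hypoxia 1 carry Eif2s3y RNA, haemoglobin runs from 4271 FPKM in control 3 to 17928 FPKM in control 1, and hypoxia 3 alone lists ribosomal RNA.

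Single genes were compared first, to ask which genes differ between hearts from hypoxic and control pregnancies. Here a call needed a fold change over 1.2 and an adjusted p under 0.3 from limma on log2(value + 1). On the FPKM scale 5 genes passed, 0.0373% of the 13422 tested. Hk2, the hexokinase that starts glucose breakdown in muscle, stood at 28.7, 34.4 and 34.8 FPKM in the controls and at 18.8, 18.95 and 19.3 FPKM in hypoxia 1, 2 and 3. The groups lie far apart, and the log2 fold change was -0.74 (SE 0.08, adjusted p = 0.188 from limma). Bnip3 stood at 114, 124 and 120 FPKM in the controls against 89.7, 88.0 and 92.2 FPKM after hypoxia (log2 fold change -0.41, SE 0.05, adjusted p = 0.271 from limma). Inpp1, a phosphatase of inositol phosphates, was the called gene that rose with an ample level. It had 14.7, 15.5 and 14.5 FPKM in the controls and 21.8, 20.5 and 20.8 FPKM after hypoxia, with a log2 fold change of 0.47 (SE 0.06) and an adjusted p of 0.271 from limma. Hk2, Bnip3 and Inpp1 each lost the call when a term for sex was fitted (adjusted p = 0.537 from limma for each), with log2 fold changes of -0.77, -0.42 and 0.47. All 3 also lost it without control 3, hypoxia 1 or hypoxia 2.

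The other 2 called genes rest on few fragments. LOC257642 was listed at 3, 1 and 1 scaled fragments in the controls and at 26, 19 and 28 in the hypoxia hearts. The summed ratio was 14.6, with a 95% binomial interval of 5.98 to 46.3. That interval treats scaled values as counts, leaves out the spread between hearts, and belongs to a gene picked for its difference. LOC102553254 had 1, 2 and 2 scaled fragments in the controls and 0 in each hypoxia heart, so that no fold is given.

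On scaled fragments 102 genes rose (0.76% of those tested) and 76 fell (0.566%). At an adjusted p under 0.05 from limma 9 of the 178 remained, among them Hk2, Bnip3, Scd, Kit, Hipk2 and Xirp2. The count of 178 rested on single hearts: it was 5 without hypoxia 2, 45 without hypoxia 1, 89 without control 2, 105 without control 3, 107 without control 1 and 395 without hypoxia 3. The FPKM count ran from 3 without control 3 to 27 without control 2. With the sex term 124 of the 178 genes kept the call, without control 1, 2 or 3 83, 66 and 71 did, and without hypoxia 1, 2 or 3 40, 5 and 157 did. Of the genes described below as having risen or fallen, some lost the call on scaled fragments with the sex term. These were Guk1, Synpo2, Slc2a4, Cox6a2, Ltbp1, Ddx21, Ppara, Txnip, Impdh2, Gadd45a and Defa5. Of these, Slc2a4, Ltbp1, Ddx21, Ppara, Txnip, Gadd45a, Guk1 and Defa5 also lost it without control 1. Without control 1 it was lost too by Smpd1, Nr1d1, Txnrd2, Cenpa, Trdn, Sparcl1, Hbegf, Pfkl, Plin5, Phlda3, Plagl1 and Myh11. Without hypoxia 2, of the genes described here Hk2, Xirp2 and LOC257642 kept it.

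A further count asked that both scales point the same way. Both scales come from the same reads, so their agreement is no independent support. Their log2 fold changes correlated at 0.968 over 10065 genes with higher fragment numbers. A gene differed on both scales when it had at least 20 mean scaled fragments, an unadjusted p under 0.05 from limma, a fold change over 1.2 and no overlap between the groups on each scale. On these terms 205 genes were higher after hypoxia (1.53% of those tested) and 166 were lower (1.24%), 371 in all. Of the 178 genes called on scaled fragments 157 were among them. With a term for sex 320 genes met the same terms, 286 of them among the 371, and without hypoxia 3 the count was 592. The lack of overlap on FPKM, taken by itself, was met by 1919 genes, 14.3% of those tested. An unadjusted p under 0.05 from limma on FPKM was met by 1149 genes. These terms are not adjusted for the number of genes tested, so the 371 may include genes that differ by chance. The median log2 fold change over all genes tested was 0.000255 on FPKM, so that the differences below are not set against a general shift.

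**Figure D2:**
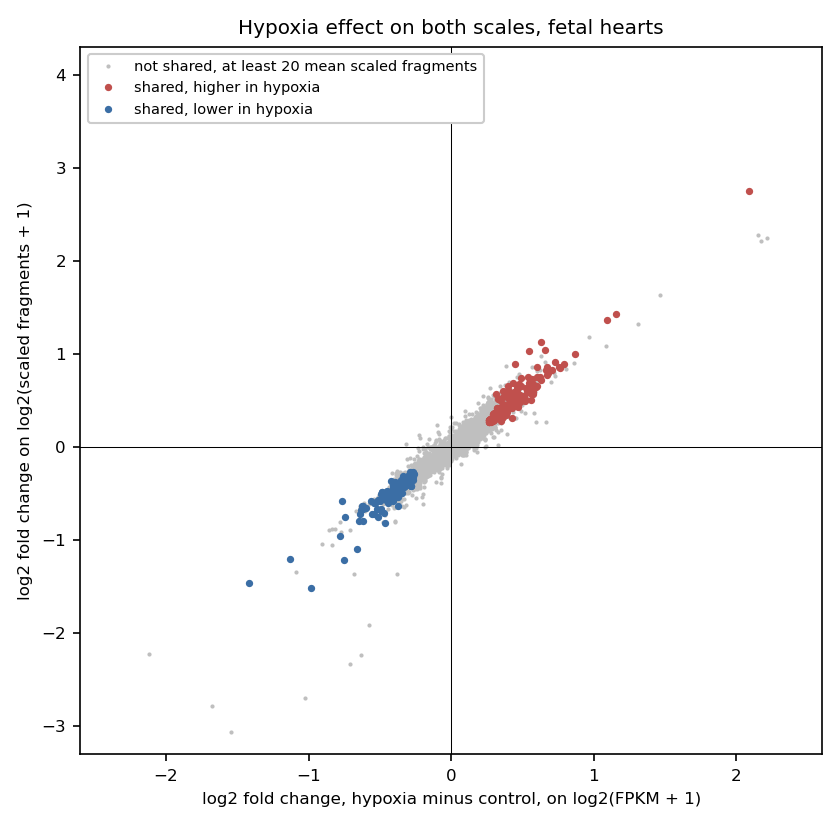
Each point is 1 of 12004 genes with at least 20 mean scaled fragments, with its log2 fold change (hypoxia minus control) on log2(FPKM + 1) across and on log2(scaled fragments + 1) upward. The 205 red and 166 blue genes that differed on both scales lie along the diagonal, and 3 ribosomal RNA genes lie outside the axes.

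Genes of the contractile apparatus were on the higher side. Of 46 tested members of the myofilament and Z-disc list 5 rose and 0 fell on scaled fragments, and 33 had a positive log2 fold change, against 6721 of 13422 genes in all. Xirp2, an actin-binding protein of the Z-disc and intercalated disc, stood at 2.40, 2.72 and 2.40 FPKM in the controls and at 5.19, 10.6 and 5.63 FPKM in hypoxia 1, 2 and 3. Every hypoxia heart was above every control, which the terms it was chosen by require. Hypoxia 2 was highest (log2 fold change 1.16 on FPKM, adjusted p = 0.0351 from limma on scaled fragments). Csrp3, muscle LIM protein of the Z-disc, had 433, 360 and 380 FPKM in the controls and 518, 507 and 468 FPKM after hypoxia (0.35, adjusted p = 0.114 from limma on scaled fragments). Myoz2, which ties calcineurin to the Z-disc, went from 162, 151 and 153 FPKM to 202, 232 and 178 FPKM (0.38, adjusted p = 0.123). Synpo2, a further actin-binding protein of the Z-disc, also rose, by 0.49 on FPKM.

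The same direction did not extend to the whole muscle programme. The median log2 fold change of the list was 0.09, and by heart the median deviation of its members from their 6-heart mean was 0.01, -0.08 and -0.05 in the controls and 0.06, 0.09 and -0.05 in the hypoxia hearts. Hypoxia 3 thus lay among the controls, and without it 8 genes of the list rose. Among 40 genes of calcium cycling Trdn, triadin of the calcium release complex, rose from 17.7, 19.4 and 16.9 FPKM to 25.5, 29.6 and 21.2 FPKM. Mcu, the pore of the mitochondrial calcium uniporter, was higher and S100a1, a calcium sensor of the sarcoplasmic reticulum, was lower on both scales without a call. Of 25 genes of the cardiac stress and fetal programme 0 were called, and 0 differed on both scales. Without hypoxia 3, 2 genes of this list rose on scaled fragments and 3 were higher on both scales.

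The classical stress markers overlapped between the groups. Nppa stood at 1162, 689 and 1116 FPKM in the controls and at 1302, 705 and 845 FPKM after hypoxia. Nppb ran from 237 to 360 FPKM in the controls and from 209 to 367 FPKM after hypoxia. The ranges of Myh6 were 724 to 1152 FPKM and 871 to 963 FPKM. Myh7 stood at 2653, 2670 and 2369 FPKM against 3104, 3056 and 2549 FPKM, with a log2 fold change of 0.18 (SE 0.11, adjusted p = 0.692 from limma).

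Matrix genes did not move together. Of 44 genes of elastic fibres, proteoglycans and glycoproteins 4 rose and 1 fell on scaled fragments, and 34 had a positive log2 fold change (median 0.11). Eln, elastin, had 30.6, 27.1 and 30.6 FPKM in the controls and 42.3, 36.5 and 35.6 FPKM in the hypoxia hearts (0.36, adjusted p = 0.123 from limma on scaled fragments). Ltbp1, which holds latent TGF-beta in the matrix, rose by 0.26 on FPKM. Sparcl1, a secreted relative of SPARC, fell from 42.2, 47.3 and 39.8 FPKM to 28.6, 34.7 and 34.4 FPKM. Of 21 collagens 0 were called and 10 had a positive log2 fold change (median -0.01). In smooth muscle, Myh11, the smooth muscle myosin, fell from 11.7, 8.38 and 11.3 FPKM to 7.59, 6.31 and 5.18 FPKM (-0.64, adjusted p = 0.114 from limma on scaled fragments). Over the list of smooth muscle and pericytes 15 of 24 genes were positive, so that the fall was not shared by the list.

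**Figure D3:**
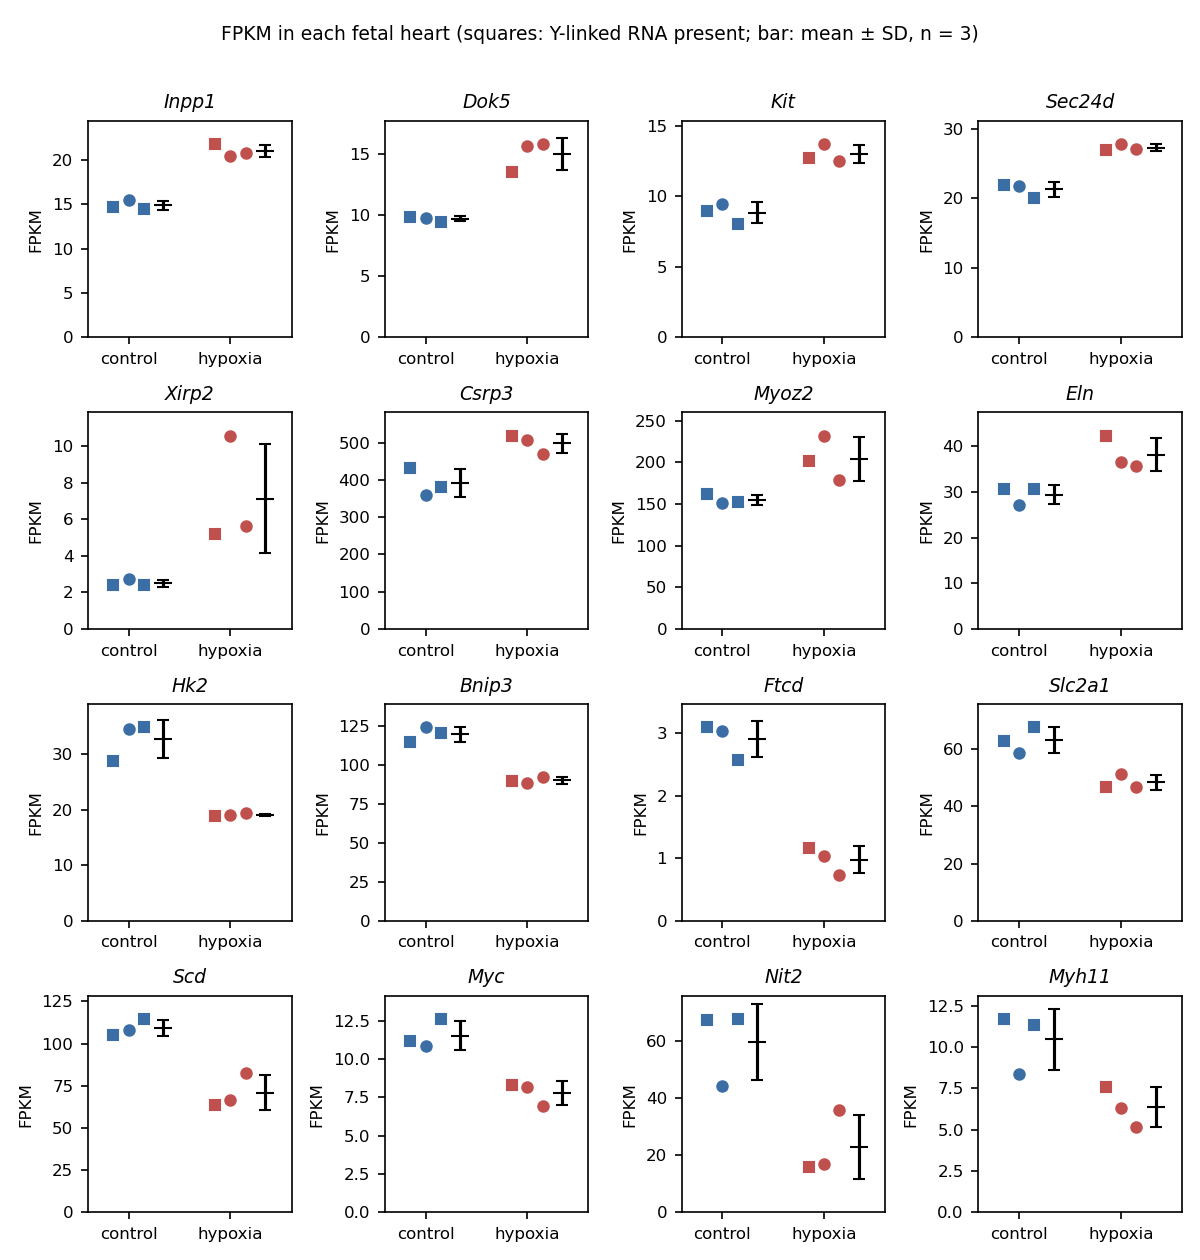
Each panel gives the FPKM of 1 gene in the 6 fetal hearts, with control in blue and hypoxia in red, squares for hearts with Y-linked RNA, and the mean ± SD (n = 3) in black, all axes starting at 0. In the upper 8 genes every hypoxia heart lies above every control and in the lower 8 below, including Nit2, where hypoxia 3 lies nearest to the controls. All are among the genes that differed on both scales, whose terms require this lack of overlap.

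Receptors and their partners were the next group. Kit, the receptor tyrosine kinase for stem cell factor, stood at 8.96, 9.48 and 8.01 FPKM in the controls and at 12.7, 13.7 and 12.5 FPKM after hypoxia (0.51, adjusted p = 0.0397 from limma on scaled fragments). Dok5, a docking protein of receptor tyrosine kinases, had 9.87, 9.81 and 9.45 FPKM against 13.5, 15.7 and 15.8 FPKM (0.58, adjusted p = 0.114). Both were clear of overlap, which the terms they were chosen by require. Hbegf, a ligand of the EGF receptor, and Garem, an adaptor of the same pathway, rose by 0.73 and 0.79 on log2(FPKM + 1), the scale of all fold changes given here unless named. Map2k1, the kinase MEK1 downstream of such receptors, fell from 27.3, 29.6 and 29.1 FPKM to 21.3, 24.2 and 21.5 FPKM. Of 37 genes of FGF, PDGF, neuregulin and EGF signalling 2 rose and 0 fell. Kit is also a marker of mast cells. The list of granulocytes and mast cells had 8 tested genes of 31, 9 of its members were at 0 in each heart, and its summed level was 22.0 to 31.7 FPKM in the controls and 30.5 to 42.2 FPKM after hypoxia. Of the 8 tested genes 6 were positive (median 0.60) and 2 rose, Kit and Defa5. Defa5 had under 20 mean scaled fragments. It lost the call with the sex term and when any single heart but hypoxia 3 was left out. Gata2, a transcription factor of mast cells, was lower on both scales at 3.02, 2.99 and 2.94 FPKM against 1.45, 2.63 and 2.21 FPKM. By heart the list median was -0.15, -0.22 and -0.43 in the controls and 0.20, 0.59 and -0.05 after hypoxia, without overlap. Kit, itself chosen for lack of overlap, is among the 8 genes behind these medians. The part of such cells in the rise of Kit was not tested.

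Second messengers and vesicle traffic added single genes. Plcb4, a phospholipase C that makes inositol trisphosphate, rose from 16.1, 16.3 and 15.2 FPKM to 24.4, 26.2 and 19.3 FPKM (0.52, adjusted p = 0.0747 from limma on scaled fragments). Together with Inpp1 and with Smpd1, acid sphingomyelinase (0.29), it made up the 3 genes that rose among 54 of phospholipid and sphingolipid metabolism, whose median was -0.03. Pde2a, a phosphodiesterase stimulated by cyclic GMP, rose by 0.43. Sec24d, a cargo subunit of the COPII coat that carries proteins out of the endoplasmic reticulum, went from 21.9, 21.8 and 20.1 FPKM to 27.0, 27.8 and 27.1 FPKM (0.35, adjusted p = 0.0721). Of 53 genes for chaperones and protein folding, of the cytosol, the endoplasmic reticulum and other compartments, 6 rose and 0 fell, 44 were positive (median 0.10), and without control 1 3 rose. By contrast 42 genes of the unfolded protein and integrated stress response had a median of -0.0044, with 1 that rose and 0 that fell. Hipk2, a kinase of transcriptional control, rose from 27.1, 25.1 and 25.6 FPKM to 34.7, 35.7 and 30.6 FPKM (0.36, adjusted p = 0.0496).

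Myc and Mycn, transcription factors that drive growth, both fell. Myc stood at 11.1, 10.8 and 12.6 FPKM in the controls and at 8.27, 8.15 and 6.91 FPKM after hypoxia (-0.51, adjusted p = 0.114 from limma on scaled fragments). Mycn, its relative in the embryonic heart, had 9.78, 11.0 and 11.4 FPKM against 7.67, 8.16 and 8.13 FPKM (-0.38, adjusted p = 0.187). The groups did not overlap for either gene, which the terms they were chosen by require. Other lists of transcription factors were mixed, with 14 of 27 immediate early genes and 23 of 38 cardiac developmental transcription factors positive. Of 50 translation factors and ribosome biogenesis genes 14 had a positive log2 fold change (median -0.08), 1 rose and 1 fell. The gene that fell was Ddx21, a nucleolar helicase, from 14.7, 13.5 and 15.4 FPKM to 11.4, 11.4 and 12.5 FPKM, a call lost with the sex term and without control 1, control 3, hypoxia 1 or hypoxia 2. Rrs1, a regulator of ribosome assembly, was lower on both scales without a call. The gene that rose was Eef1a2, the elongation factor form of mature muscle, from 178, 151 and 161 FPKM to 214, 223 and 181 FPKM. Cytosolic ribosomal proteins had 26 of 71 positive and 0 called.

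The cell cycle and DNA replication list had 22 of 73 positive (median -0.06) with 1 gene called. This was Cenpa, the histone of the centromere, from 18.0, 18.3 and 20.1 FPKM to 15.7, 12.8 and 13.3 FPKM. Without hypoxia 3, 5 genes of this list fell, and without control 1, 0 fell. By heart its median was 0.02, -0.02 and 0.11 in the controls and -0.01, -0.08 and 0.03 after hypoxia, with overlap. Of 46 genes of pentose phosphate, hexosamine and nucleotide synthesis 14 were positive (median -0.04), 4 were lower on both scales and 0 were higher on both. Impdh2, the limiting enzyme of guanine nucleotide synthesis, fell by 0.27 on FPKM, and Pgls of the pentose phosphate pathway, Paics of purine synthesis and Gfpt2 of the hexosamine pathway were lower on both scales without a call. Guk1, guanylate kinase, fell from 74.9, 68.1 and 77.1 FPKM to 58.7, 55.8 and 58.7 FPKM. Of 25 imprinted growth genes 4 were positive (median -0.10). Plagl1, a transcription factor of the imprinted network, fell from 31.8, 33.6 and 34.1 FPKM to 20.4, 26.2 and 29.2 FPKM, and Asb4 rose by 0.43. Igf2 and H19, the best known of them, overlapped between the groups: Igf2 stood at 350 to 422 FPKM and 366 to 410 FPKM. The list median lay at 0.05, 0.07 and 0.07 in the controls and at -0.07, -0.05 and 0.02 in the hypoxia hearts, with hypoxia 3 nearest to the controls. Without hypoxia 3, 5 imprinted genes fell on scaled fragments, and without control 1, 0 fell.

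**Figure D4:**
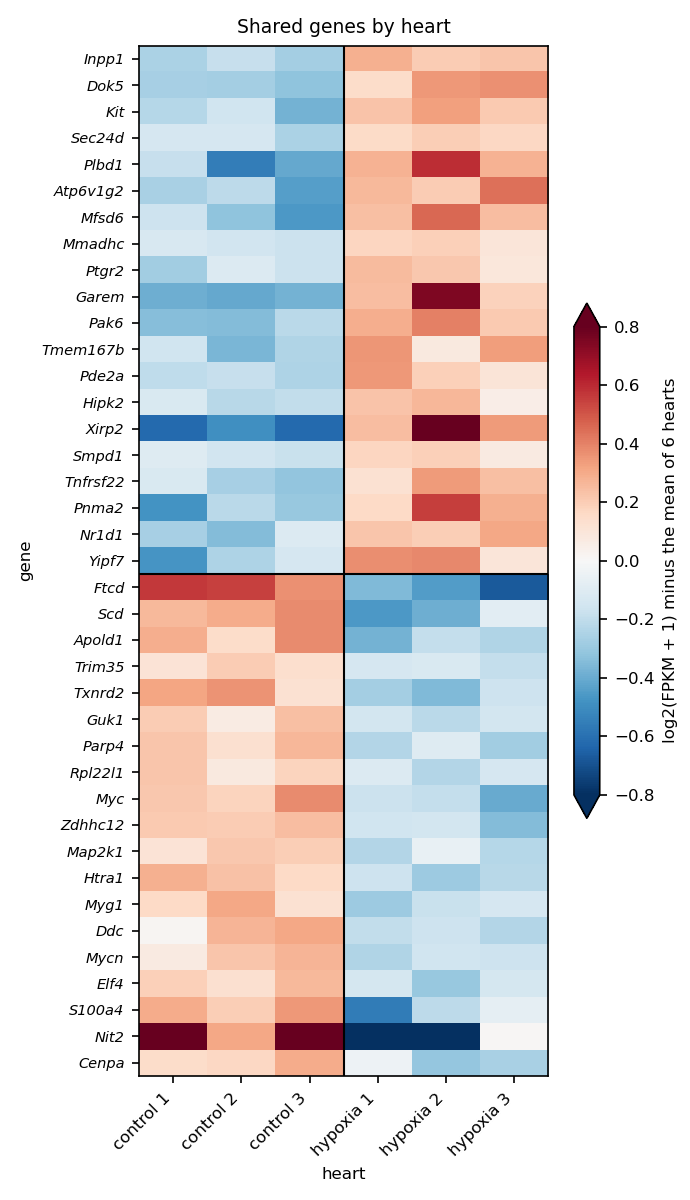
Rows are 20 higher and 19 lower genes taken by the smallest p on FPKM among those that differed on both scales, with LOC, RGD, Mir and Snor symbols, chaperones, HIF targets and 1 further lower gene left out, columns are the 6 fetal hearts, and colour is log2(FPKM + 1) minus the mean of the 6 hearts. The upper rows are red in the hypoxia hearts and blue in the controls and the lower rows the reverse, as the choice of genes without overlap fixes, with Nit2 and Scd palest in hypoxia 3.

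Single genes of glucose uptake and use fell, while the glycolysis list did not move as a whole. Slc2a1, the glucose transporter of fetal tissue, fell from 63.0, 58.7 and 67.7 FPKM to 46.9, 51.5 and 46.8 FPKM (-0.38, adjusted p = 0.0721 from limma on scaled fragments). Slc2a4, the insulin-responsive glucose transporter, fell from 17.2, 18.8 and 17.4 FPKM to 14.1, 15.0 and 11.6 FPKM (-0.37, adjusted p = 0.245 from limma on scaled fragments), a call lost with the sex term and when any single heart but hypoxia 3 was left out. Pfkl, a phosphofructokinase, fell by 0.38. Txnip, which restrains glucose uptake, rose from 84.7, 81.3 and 83.9 FPKM to 95.7, 105 and 146 FPKM, with hypoxia 3 far above the rest. This call was lost with the sex term and without any 1 of the controls or hypoxia 2. Of 19 genes of glycolysis outside the HIF list 9 were positive (median -0.0069), 1 rose, Txnip, and 1 fell, Slc2a4, and with the sex term or without control 1 0 were called. Of 37 HIF target genes 5 fell and 0 rose, and 11 were positive.

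The promoters of Bnip3 and Slc2a1 are shown because both genes fell and both hold the letters ACGTG, the core that HIF is known to bind. They are RefSeq sequences of the GRCr8 build, from 250 bases before to 50 after the gene start, with each ACGTG on either strand in capitals. That of Bnip3 lies at chr1:203154913-203155212 on the minus strand and that of Slc2a1 at chr5:138002272-138002571 on the plus strand.
Bnip3: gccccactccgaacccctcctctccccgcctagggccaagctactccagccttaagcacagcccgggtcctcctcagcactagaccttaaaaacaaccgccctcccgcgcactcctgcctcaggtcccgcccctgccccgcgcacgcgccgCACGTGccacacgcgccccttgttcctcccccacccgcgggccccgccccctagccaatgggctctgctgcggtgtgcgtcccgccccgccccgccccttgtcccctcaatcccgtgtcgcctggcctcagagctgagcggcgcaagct
Slc2a1: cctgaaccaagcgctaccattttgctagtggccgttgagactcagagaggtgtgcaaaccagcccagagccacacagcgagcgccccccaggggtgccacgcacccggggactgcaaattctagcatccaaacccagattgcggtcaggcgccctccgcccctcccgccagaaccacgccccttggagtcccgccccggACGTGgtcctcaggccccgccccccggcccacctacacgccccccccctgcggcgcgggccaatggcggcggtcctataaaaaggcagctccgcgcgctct

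In the Bnip3 promoter the run CACGTG holds ACGTG on both strands. Of 9482 promoters matched among the tested genes 26% held ACGTG on either strand, as did 25.2% of 151 promoters of genes higher on both scales and 26.5% of 113 of genes lower on both scales. Among HIF target genes 19 of 31 held it. Hk2, Pfkl and Slc16a3, the other HIF target genes lower on both scales, did not hold it. The E-box CACGTG, the letters that Myc is known to bind and that contain ACGTG, stood in 9.55% of all matched promoters. It stood in 13 of 113 promoters of the lower genes (11.5%) and in 12 of 151 of the higher genes (7.95%). In the translation and ribosome biogenesis list 15 of 46 held it, though that of Ddx21 did not. A match is a description of these letters in this window and not a binding site.

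Lipid synthesis held further decreases. Scd, stearoyl-CoA desaturase, which makes monounsaturated fatty acids, stood at 105, 108 and 115 FPKM in the controls and at 63.5, 66.6 and 82.7 FPKM after hypoxia (-0.63, adjusted p = 0.0284 from limma on scaled fragments). Srebf1, the transcription factor of fatty acid synthesis, fell from 5.74, 6.20 and 6.16 FPKM to 4.15, 3.96 and 4.69 FPKM (-0.42, adjusted p = 0.123). Dgat1, which closes triglyceride synthesis, was lower on both scales without a call. Plin5, a coat protein of lipid droplets in oxidative tissue, rose from 7, 10 and 7 scaled fragments to 16, 23 and 25. Over the 37 genes of fatty acid and triglyceride synthesis 17 were positive, so that the list did not move as a whole.

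Most members of 4 mitochondrial lists were positive, with few calls, and those of another were not. Nuclear genes of oxidative phosphorylation were positive in 59 of 76 (median 0.06), mitochondrial ribosome and import in 39 of 56, the TCA cycle in 30 of 41 and fatty acid oxidation in 37 of 49. Mitochondrial biogenesis, dynamics and quality control had 18 of 39 positive (median -0.01), with 1 gene called. Cox6a2, the muscle form of a cytochrome oxidase subunit, rose from 243, 196 and 203 FPKM to 251, 306 and 269 FPKM (0.37, adjusted p = 0.254 from limma on scaled fragments), a call lost with the sex term and when any single heart but control 1 or hypoxia 3 was left out. By heart the oxidative phosphorylation median was 0.01, -0.06 and -0.03 in the controls against 0.07, 0.07 and -0.05 in hypoxia 1, 2 and 3, so that hypoxia 3 lay with the controls. Without hypoxia 3, 69 of 76 were positive. The mitochondrial ribosome and import median was 0.02, -0.13 and 0.03 in the controls against 0.02, 0.04 and -0.01 after hypoxia. That of the TCA cycle was 0.01, -0.09 and 0.01 against 0.06, 0.05 and -0.03. In both lists the groups overlapped and control 2 was lowest. Fatty acid oxidation ran from -0.04 to -0.02 in the controls and stood at 0.03 in each hypoxia heart, without overlap. Ppara, the nuclear receptor that drives fatty acid oxidation, fell by 0.25 on FPKM although 37 genes of that list were positive. Txnrd2, the mitochondrial thioredoxin reductase, fell from 11.2, 11.6 and 9.71 FPKM to 7.14, 6.71 and 7.77 FPKM.

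Of 56 genes of amino acid and one-carbon metabolism 26 were positive (median -0.01), 0 rose and 1 fell. The gene that fell was Ftcd. Ftcd, which feeds histidine carbon into the folate pool, stood at 3.09, 3.04 and 2.57 FPKM in the controls and at 1.17, 1.03 and 0.739 FPKM after hypoxia (-0.98, adjusted p = 0.0721 from limma on scaled fragments). Nit2, an omega-amidase, stood at 67.2, 44.3 and 67.7 FPKM against 15.9, 16.9 and 35.8 FPKM (-1.42, adjusted p = 0.0721). Ephx2, soluble epoxide hydrolase, was chosen after its values were seen. It had 5.03, 1.13 and 0.608 FPKM in the controls and 11.0, 9.90 and 11.1 FPKM after hypoxia (2.08, adjusted p = 0.106 from limma on scaled fragments). The controls themselves differed widely for Ephx2, control 1 being several times above control 3. Ddc, which makes dopamine and serotonin, fell from 105, 126 and 129 FPKM to 90.9, 92.9 and 88.4 FPKM.

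Regulators of the cell state moved in single genes. Of 60 genes of p53, apoptosis and DNA damage 2 rose and 0 fell. Phlda3, a p53 target, went from 20.1, 18.9 and 20.7 FPKM to 28.7, 23.6 and 35.1 FPKM, and Gadd45a, a growth arrest gene, from 21.3, 23.5 and 17.6 FPKM to 33.1, 31.5 and 24.5 FPKM. Sgk1, a kinase induced by glucocorticoids, fell from 12.3, 11.5 and 17.0 FPKM to 7.66, 9.04 and 8.59 FPKM, the only one called of 22 genes of that response. Hey2, a Notch target of the ventricle, fell from 24.9, 36.5 and 32.1 FPKM to 22.5, 22.3 and 22.1 FPKM. Nr1d1, a repressor of the clock, rose by 0.48 on FPKM, while the 20 clock genes had 8 positive. Prkce, which encodes protein kinase C epsilon, stood at 18.1, 18.6 and 16.6 FPKM against 16.5, 17.6 and 18.9 FPKM, with overlap and a log2 fold change of -0.0099 (SE 0.08). The DNA methyltransferases Dnmt1, Dnmt3a and Dnmt3b and the demethylating Tet1, Tet2 and Tet3 had log2 fold changes between -0.16 and 0.02, none of them called.

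**Figure D5:**
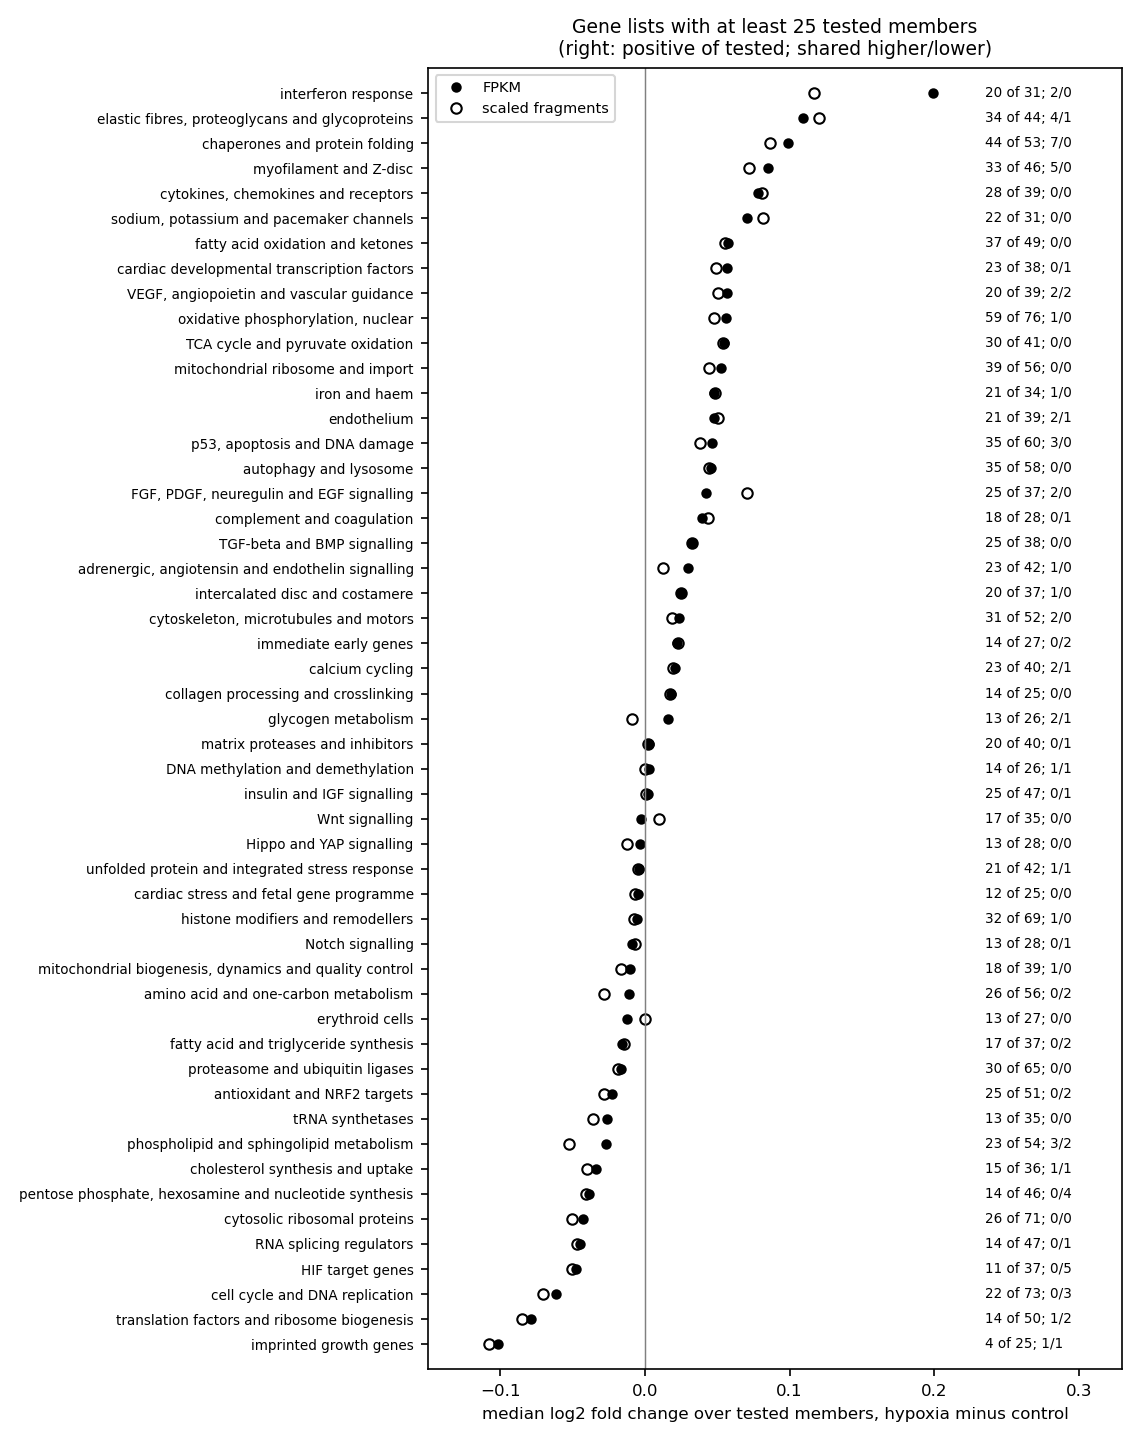
Each row is 1 gene list with at least 25 tested members, and the horizontal axis is its median log2 fold change (hypoxia minus control) on FPKM (filled) and on scaled fragments (open), with the number of positive members and of members higher and lower on both scales at the right. The medians lie between -0.11 and 0.20, with imprinted growth genes lowest on both scales. The interferon response is highest on FPKM (0.20), and elastic fibres, proteoglycans and glycoproteins on scaled fragments (0.12).

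Blood and the other cell types of the heart were also read. Summed haemoglobin ran from 4271 to 17928 FPKM in the controls and from 8170 to 10059 FPKM after hypoxia, so that the controls spanned the hypoxia hearts. Of 27 erythroid genes 0 were called, and 13 were positive (median -0.01). Without control 1, which had the most haemoglobin, 24 were positive (median 0.19), and without hypoxia 3 20 were. Epicardial and mesothelial markers were positive in 10 of 11 and lymphatic endothelial markers in 9 of 10, with 0 called in each. The summed level of the former was 35.6 to 47.3 FPKM in the controls against 46.3 to 47.9 FPKM after hypoxia, and that of the latter 49.96 to 56.5 FPKM against 55.3 to 59.6 FPKM. Macrophage markers summed to 62.1 to 85.0 FPKM against 82.2 to 87.3 FPKM. In the interferon response 20 of 31 genes were positive with 0 called, and Bst2, which tethers virus particles, was higher on both scales at 6.64, 7.15 and 5.20 FPKM in the controls and 11.6, 9.91 and 8.72 FPKM after hypoxia.

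The adult offspring of the same design, labelled as 10 males and 10 females at 5 months, were set beside the fetal genes. A heart labelled female control carried Y-linked RNA and was kept in the female values below. Eif2s3y stood at 2.74 ± 6.14 FPKM (SD, n = 5) in the female controls. Among genes also at 1 FPKM or more in adult males, 43.4% of 189 higher fetal genes had a positive adult difference, beside 48.8% of 12053 genes in all. In females it was 42.3% of 189, beside 48.2% of 11877. Of the lower fetal genes 55.2% of 145 had a negative difference in males, beside 51.2% of all, and 53.6% of 140 in females, beside 51.8%. Hk2 had 20.6 ± 2.58 FPKM in adult male controls and 24.9 ± 4.93 FPKM in adult males after hypoxia (SD, n = 5 each). In adult females Hk2 had 25.4 ± 2.13 and 25.1 ± 3.63 FPKM. Whether the fetal and the adult effects differ was not tested for single genes.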

How the data were processed

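The RNA-seq values of 6 fetal hearts were used, with 20 adult hearts for 1 comparison. According to the study's methods and the submitters' processing notes, reads were trimmed with Trimmomatic 0.35, mapped with TopHat2 2.1.1 on Rnor6.0 and quantified with Cufflinks 2.2.1. The authors deposited FPKM values for each heart. The authors also deposited a signal of whole numbers per gene, fragments scaled to a common depth, called scaled fragments here. They are not raw counts, so no count model was fitted, although the design had named one. Depth before scaling is not given by these values; low genes gave relative depths of 1 to 1.17 among the hearts.

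Groups followed the labels. Genes averaging 1 FPKM or more were fitted with limma 3.58.1 in R 4.3.3, with a variance trend, on log2(value + 1), and p-values were adjusted by Benjamini-Hochberg over 13422 genes. The thresholds for a call follow the study. The pseudocount understates changes of low genes. The tests were tried on simulated data. Within a group at most 3.17% of the tested genes had identical scaled fragments.

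The genes named are those called on FPKM, the 20 per direction with the smallest p among those that differed on both scales (without LOC, RGD, Mir and Snor symbols, chaperones and HIF targets; not each of the 40 is described, and some items are not reported here), up to 4 members per list, fixed genes such as Prkce, Nppa and Igf2, and the 5 with the largest difference between scales. The 75 gene lists and the rules were chosen with earlier results of these data known, and the list medians with the sex term or without single hearts were added after seeing the data. Sex was read from the Y-linked genes Eif2s3y and Kdm5d. Promoters were matched by symbol for 9482 of 13422 genes (70.6%), so that motif shares cover only these.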

Additional observations from a re-analysis of the deposited data

How the results depend on the processing

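The number of genes called on FPKM was 5. It was 16 with no filter on level, 43 when at least 20 mean scaled fragments were also required, and 2 with no variance trend, with the replicate block or with sex as a covariate. Leaving out 1 heart gave 3 to 27 calls: 13, 27 and 3 when control 1, 2 or 3 was left out, and 9 and 22 when hypoxia 1 or 3 was. The number called on scaled fragments was 178, and it was 33 with no filter on level, 11 with no variance trend and 32 with hypoxia 1 and 2 averaged into 1 sample. Leaving out 1 heart gave 5 (hypoxia 2) to 395 (hypoxia 3). The number that differed on both scales was 371 and ranged from 354 to 592 when 1 heart was left out, the highest without hypoxia 3. The other alternatives (pseudocounts, upper-quartile and median-ratio scaling) left each count within 1.5 times. The cause was not tested. Hk2, Bnip3 and Inpp1 lost their FPKM calls with no variance trend, the replicate block, sex as a covariate or hypoxia 1 and 2 averaged, and also without control 3, hypoxia 1 or hypoxia 2, Inpp1 in addition without control 1 or hypoxia 3. Both LOC genes kept theirs, except that they were not tested where 20 mean scaled fragments were required.

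Same-numbered control and hypoxia hearts had deviations that correlated at 0.17, 0.15 and -0.06, so the numbers were not taken as pairs. With the replicate block 194 genes were called on scaled fragments and 327 differed on both scales, 324 of them among the 371. Of the named genes tested on FPKM, none that had an unadjusted p under 0.05 changed sign under any alternative. Many of them were chosen for groups without overlap. For those, leaving out or averaging hearts cannot change the sign, so the outcome of these fits was fixed by the choice. The adult shares stayed within their exact 95% binomial intervals on scaled fragments and without any single adult heart, a female control heart with Y-linked RNA included. These intervals treat genes of the same hearts as independent. They leave out the spread between animals and serve only as a yardstick. A count model was not run, because the deposited whole numbers are scaled.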
